A study of Mus musculus with 21 samples.

Results

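Levels of the galectin family were followed across 21 RNA sequencing libraries of mouse spleen cells. The members were taken by gene symbol. They are the galectin genes Lgals1, Lgals3, Lgals4, Lgals8 and Lgals9, with Lgals3bp, which encodes a secreted glycoprotein that galectins bind. These are 6 of the 14273 rows of the table, and each of the 6 passed the filter on low values. Of other galectin symbols looked up in the table, Lgals2 reached at most 0.319, Lgals7 at most 0.366 and Grifin at most 0.326 in any library, and these were not tested. The galectin-like gene Lgalsl reached at most 3.41. Lgals5, Lgals6 and Lgals12 were not analysed here.

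Galectins are lectins that bind beta-galactoside sugars through a carbohydrate recognition domain. They are made in the cytosol and exported without a signal peptide, and outside the cell they cross-link glycoproteins such as CD45, CD43 and integrins on leukocytes. Inside the cell they bind sugars exposed on torn endosomes and lysosomes, where some of them recruit autophagy receptors. In blood-forming tissue, galectin-3 is known as a product of macrophages and other myeloid cells, and galectin-1 and galectin-9 are known for dampening T cell responses.

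All mice were C57BL/6, no genetic change is named in the labels, and each of the 7 groups had 3 libraries. In 6 groups the sorted cells carried the erythroid antigen Ter119 and the transferrin receptor CD71. They were CD45+ or CD45- and came from tumor-bearing mice, anemia mice or neonatal mice. The last group held CD11b+Gr1+ myeloid-derived suppressor cells (MDSC) of tumor-bearing mice. The kind of tumor, the cause of the anemia and the ages are not given in the sources used here, and neither is the number of mice behind a library. The p-values therefore reflect nothing wider than library-to-library variation, part of which could be technical. The tissue label reads spleen throughout, although the extraction text speaks of retinas. The series set out to compare the CD45+ erythroid-like cells of tumor-bearing mice with the other cell types and states.

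Levels are given on the authors' expression scale after the log2 was undone. The scale is not named in the sources used here, so values were compared between libraries and not between genes. Summed values ran from 227961 to 349261 per library, and 12294 to 13952 genes had a value. Read depth is unknown. Ptprc, which encodes CD45, ranged from 86.7 to 477 in the CD45+ libraries and from 1.23 to 5.50 in the CD45- libraries. Tfrc, the CD71 gene, ranged from 326 to 1495 in the CD45- libraries and from 40.6 to 161 in the CD45+ libraries. In MDSC, which were not gated on CD71, it was 36.0 to 54.3, within reach of the neonatal CD45+ libraries at 40.6 to 66.1. Ly6g, which encodes a Gr1 antigen, overlapped between MDSC (7.81 to 37.8) and tumor CD45+ cells (1.05 to 21.7). Summed values of 12 erythroid markers ranged from 3141 to 37911 in the CD45+ libraries, from 30441 to 168329 in the CD45- libraries and from 129 to 1437 in MDSC. Markers of leukocytes outside the erythroid line were also present in the CD45+ libraries. The sum of 12 neutrophil markers ranged from 11159 to 29353 in tumor CD45+ cells, from 9415 to 11839.7 in neonatal CD45+ cells and from 474 to 2760.5 in anemia CD45+ cells. It ranged from 44618 to 69249 in MDSC and from 8.91 to 371 in the CD45- libraries. Library 3 of anemia CD45+ cells and library 3 of tumor CD45+ cells stood apart from the others of their groups in several of these sums, and their values are given beside the members they touch.

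Promoter sequences are shown for 3 members with different patterns below: Lgals3, which had the largest CD45 difference of the members in tumor-bearing and neonatal mice, Lgals4, which was higher in CD45+ cells in each status, and Lgals9, which was not. RefSeq sequences (GRCm38.p6) matched 5 of the 6 members by symbol, all but Lgals1. Each sequence holds the 250 bases before the start site, 5′ to 3′ on the gene's strand, and the capitals mark matches to the motifs named after them. The Lgals3 stretch is chr14:47373610-47373859 on the + strand, that of Lgals4 is chr7:28833544-28833793 on the + strand, and that of Lgals9 is chr11:78984925-78985174 on the - strand.
Lgals3: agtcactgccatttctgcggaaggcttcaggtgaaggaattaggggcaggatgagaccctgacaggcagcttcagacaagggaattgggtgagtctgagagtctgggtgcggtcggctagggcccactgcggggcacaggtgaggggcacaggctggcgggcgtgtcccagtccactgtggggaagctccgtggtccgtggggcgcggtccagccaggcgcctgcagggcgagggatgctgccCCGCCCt
Lgals4: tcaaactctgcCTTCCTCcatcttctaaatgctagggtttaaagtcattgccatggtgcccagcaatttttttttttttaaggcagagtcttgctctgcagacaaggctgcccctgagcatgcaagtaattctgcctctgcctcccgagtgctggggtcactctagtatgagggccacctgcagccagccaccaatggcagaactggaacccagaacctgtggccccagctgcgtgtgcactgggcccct
Lgals9: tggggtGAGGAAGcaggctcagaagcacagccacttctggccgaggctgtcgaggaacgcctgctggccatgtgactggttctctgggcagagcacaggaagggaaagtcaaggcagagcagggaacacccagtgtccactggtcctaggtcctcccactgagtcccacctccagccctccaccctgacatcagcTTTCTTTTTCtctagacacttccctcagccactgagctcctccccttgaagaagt

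Both strands were searched for 8 motifs of factors active in erythroid and myeloid cells, of interferon responses and of basal promoters. With positions counted back from the start site, the Lgals3 stretch held a GC box (GGGCGG, here as its reverse complement) at -7. A GC box was in 32.7% of 32851 promoter stretches of this length. The Lgals4 stretch held a match to the PU.1 motif GAGGAAG, as its reverse complement, at -239, and the Lgals9 stretch held one at -244. This motif was in 10.6% of the stretches. Lgals9 also held the interferon-stimulated response element, searched as GAAA repeated after any pair of bases, as its reverse complement at -55, which was in 2.98% of the stretches. A CACCC box (CCACACCC) was at -136 in Lgals8 and in 3.20% of the stretches. The Lgals3bp stretch held no match to any of the 8. The GATA motif AGATAA, the C/EBP motif TTGCNNAA, the AP-1 motif TGANTCA and the TATA box TATAAA matched in none of the 5, and in 9.99%, 9.56%, 6.75% and 12.4% of the stretches. The matches did not overlap each other. The GC content was 66.0% for Lgals3, 53.6% for Lgals4 and 58.4% for Lgals9, beside a median of 52.4%. A match describes letters only and is not a measured binding site.

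The comparison of CD45+ with CD45- cells asked which transcripts set the CD45+ fraction apart within each status. Lgals1, Lgals3 and Lgals4 were higher in CD45+ cells of tumor-bearing, anemia and neonatal mice. Lgals8, Lgals9 and Lgals3bp passed the test in some statuses and not in others. In tumor-bearing mice 5 of the 6 members were higher in CD45+ cells (limma, adjusted p below 0.05), where 50.2% of the 11192 tested genes were. In anemia mice the count was 4, against 47.4% of genes, and in neonatal mice 5, against 49.6%. No member was lower, where 10.9%, 11.3% and 10.3% of genes were. Counting members whose every CD45+ library lay above every CD45- library gave 3, 4 and 6, against 53.8%, 50.4% and 55.9% of genes. The members' median log2 fold change was 2.00, 1.82 and 2.14 in the same order, and the median over all tested genes was 0.75, 0.68 and 0.75. These medians depend on scaling between libraries. With quantile normalization the medians of tested genes were -0.11, -0.09 and -0.03, and the share of called genes that were higher went from 82.2%, 80.7% and 82.8% to 46.0%, 46.4% and 48.7%. With median-ratio scaling those medians were 0.06, 0.04 and 0.06 and those shares 55.5%, 53.8% and 55.1%. Relative to the median of tested genes without scaling, the CD45 differences in tumor-bearing mice were 4.77 for Lgals3, 3.20 for Lgals1, 1.31 for Lgals4, 1.19 for Lgals3bp, 0.56 for Lgals9 and 0.07 for Lgals8. In bulk libraries such as these, fewer cells of a type and less RNA per cell cannot be told apart.

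**Figure D1:**
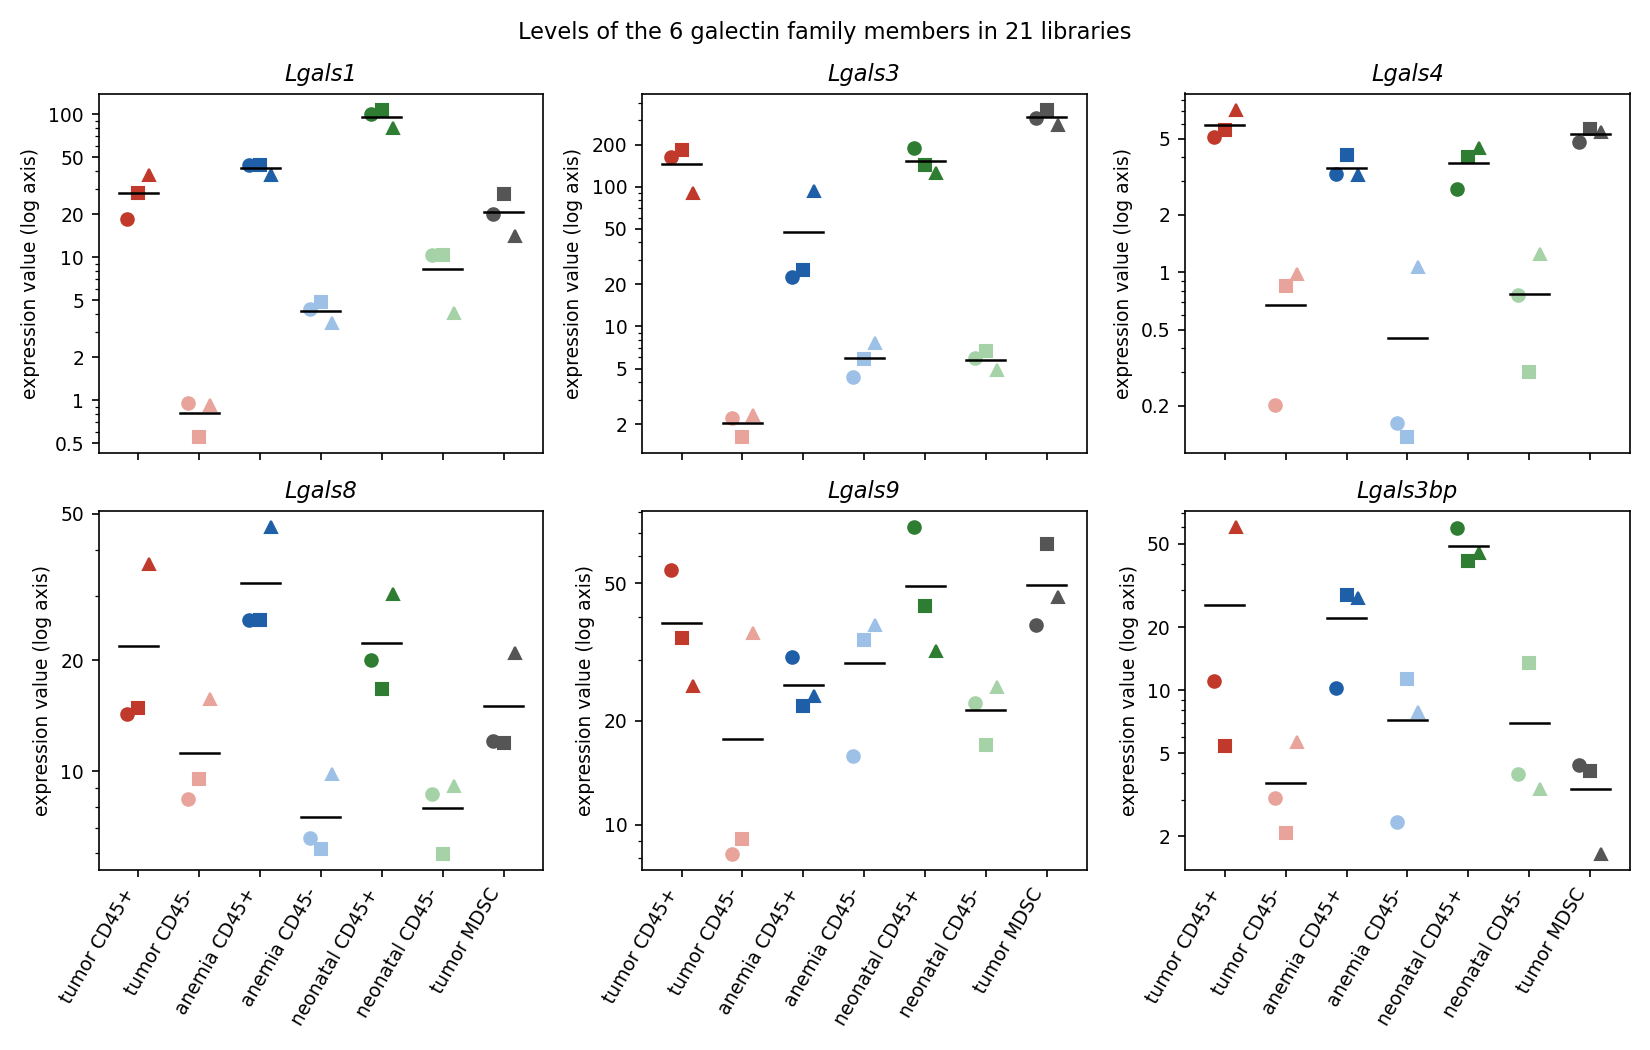
Expression values of the 6 members in each of the 21 libraries, on log axes, by group. Circles, squares and triangles are libraries 1, 2 and 3 of a group, and the black line is the group mean. Lgals1, Lgals3 and Lgals4 form a high and a low tier by CD45 in each status, while Lgals9 does not.

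Lgals1 encodes galectin-1, the prototype galectin with a single sugar-binding domain that works as a dimer. Its level in the tumor CD45+ libraries was 18.6, 27.9 and 37.6, against 0.959, 0.558 and 0.924 in the tumor CD45- libraries. In anemia mice it was 44.0, 44.2 and 37.5 in CD45+ cells and 4.34, 4.85 and 3.47 in CD45- cells. In neonatal mice it was 100.1, 107 and 80.2 in CD45+ cells and 10.3, 10.3 and 4.09 in CD45- cells. In each status every CD45+ library lay above every CD45- library. MDSC had 20.1, 27.7 and 14.0, a range that overlapped that of tumor CD45+ cells. By group mean the order ran from neonatal CD45+ (95.6 ± 13.8 SD, n = 3) through anemia CD45+, tumor CD45+, MDSC, neonatal CD45- and anemia CD45- to tumor CD45- (0.814 ± 0.222 SD, n = 3). The libraries of anemia CD45+ and tumor CD45+ cells overlapped, as did those of tumor CD45+ cells and MDSC and those of neonatal and anemia CD45- cells. The other neighbours in this order did not overlap.

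On the log2(value + 1) scale, Lgals1 was higher in CD45+ cells by 3.95 ± 0.30 (SE) in tumor-bearing mice (limma, adjusted p = 9.7e-09). The difference was 3.04 ± 0.30 in anemia mice (adjusted p = 2.3e-07) and 3.47 ± 0.30 in neonatal mice (adjusted p = 7.0e-08). The interaction terms, which compare these differences between statuses, did not pass for Lgals1 (adjusted p between 0.33 and 0.92). Lgals1 also differed between statuses within the CD45 fractions. It was lower in tumor than in neonatal CD45+ cells by a log2 difference of -1.78 ± 0.30 (adjusted p = 0.0011), as the only member called in that comparison, where 6.61% of tested genes were called. In anemia against neonatal CD45+ cells the difference was -1.16 ± 0.30 (adjusted p = 0.011). Among CD45- cells it was lower in tumor than in neonatal mice by -2.26 ± 0.30 (adjusted p = 1.9e-04), where 2.54% of genes were called, and no other member passed. Markers of other cells differed between the same groups. The sum of 10 mast cell, basophil and eosinophil markers was 798 to 1485 in neonatal CD45+ cells, 32.4 to 122 in tumor and 10.2 to 29.7 in anemia CD45+ cells. The sum of 8 Kupffer and splenic resident macrophage markers was 1247 to 1871, 35.3 to 177 and 30.1 to 54.3 in the same order, and that of 8 hepatocyte markers 229.9 to 429, 34.5 to 180.2 and 11.8 to 21.2. Of these 8 hepatocyte markers, 6 were listed at 0 in each anemia CD45+ library, and Serpina1a was in each tumor CD45+ library. Among CD45- cells the Kupffer and resident macrophage sum was 90.8 to 113 in neonatal and 4.26 to 12.3 in tumor-bearing mice, and the hepatocyte sum 121 to 694 and 3.61 to 11. The part of these markers in the Lgals1 differences was not tested.

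Tumor and anemia CD45- cells did not overlap in Lgals1 either, with a log2 difference of -1.52 ± 0.30 that missed the threshold (adjusted p = 0.059). No member passed in that comparison by limma, and Lgals1 and Lgals3 had an unadjusted p under 0.05 (1.0e-04 and 0.012). Few genes passed in that comparison (0.152% of those tested), and 6.62% of genes had libraries apart in that direction. Lgals3 was likewise apart, with -1.16 ± 0.41 (adjusted p = 0.42). Against neonatal CD45- cells it was apart as well, with -1.15 ± 0.41 (adjusted p = 0.21), as were 14.8% of genes. Because the tumor CD45- levels of Lgals1 lie below the pseudocount of 1, its folds against that group are understated. The call was made without library 3 of tumor CD45+ (adjusted p = 0.0482), tumor CD45- (0.044) or neonatal CD45- cells (0.018). With a pseudocount of 0.1 the difference from anemia CD45- cells was -2.26 (adjusted p = 0.0096, in a range of 0.0096 to 0.35 over 12 processing alternatives). Anemia and neonatal CD45- cells differed by -0.74 ± 0.30 in Lgals1, which did not pass (adjusted p = 0.21), and neither did any other member, where 4.33% of genes did. Lgals1 alone had an unadjusted p under 0.05 there (0.026).

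Lgals3 encodes galectin-3, the chimera-type galectin, whose sugar-binding domain carries a long collagen-like tail through which it forms multimers. Its level was 163, 182 and 89.5 in tumor CD45+ libraries and 2.21, 1.63 and 2.33 in tumor CD45- libraries. In anemia mice it was 22.5, 25.4 and 93.4 in CD45+ cells and 4.32, 5.84 and 7.59 in CD45- cells. In neonatal mice it was 189.6, 144 and 126 in CD45+ cells and 5.90, 6.65 and 4.85 in CD45- cells. The CD45+ and CD45- libraries were apart in every status, and library 3 of anemia CD45+ cells was far above the other anemia CD45+ libraries. MDSC had 308, 355 and 275, all above every Ter119+CD71+ library. The order of means was MDSC (313 ± 40.3 SD, n = 3), neonatal CD45+, tumor CD45+, anemia CD45+, anemia CD45-, neonatal CD45- and tumor CD45- (2.05 ± 0.377 SD, n = 3). Neonatal and tumor CD45+ libraries overlapped, as did tumor and anemia CD45+ libraries and anemia and neonatal CD45- libraries.

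Lgals3 had the largest CD45 difference of the members in tumor-bearing and in neonatal mice. It was higher in CD45+ cells by 5.52 ± 0.41 in tumor-bearing mice (adjusted p = 7.1e-09), by 2.52 ± 0.41 in anemia mice (adjusted p = 6.0e-05) and by 4.49 ± 0.41 in neonatal mice (adjusted p = 1.2e-07). The CD45 difference itself was larger in tumor-bearing than in anemia mice by 3.01 ± 0.58 (interaction, adjusted p = 0.012), and Lgals3 was the only member called by that term, where 2.19% of genes were. With only the libraries of those groups fitted, the same term missed the threshold (adjusted p = 0.0542, in a range of 0.0054 to 0.0542 over 12 processing alternatives). The term for anemia minus neonatal mice was -1.98 ± 0.58 (adjusted p = 0.0499), where 6.92% of genes passed. It lay at the threshold: 2 of 12 processing alternatives and 2 of 18 fits without 1 library, those without library 3 of tumor CD45+ or of anemia CD45+ cells, kept the call, and with the replicate number as a block the adjusted p was 0.059. The term for tumor minus neonatal mice did not pass in Lgals3 (1.03 ± 0.58, adjusted p = 0.68) or in any other member, where 1.08% of genes did. The lowest unadjusted p of a member was that of Lgals3 (0.095).

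Among CD45+ cells, Lgals3 was higher in tumor-bearing than in anemia mice by 1.85 ± 0.41 (adjusted p = 0.0072). It was the only member called there, against 10.7% of genes, and the libraries of these groups overlapped. The call did not hold in a fit of only these groups (adjusted p = 0.16) or without library 2 of anemia CD45+ cells (1.57, adjusted p = 0.0501). Its range was 0.0034 to 0.16 over 12 processing alternatives. In anemia against neonatal CD45+ cells Lgals3 differed by -1.97 ± 0.41 (adjusted p = 0.0023). With Lgals1 it was 1 of 2 members called in that comparison, where 20.3% of genes were. Tumor and neonatal CD45+ cells differed by -0.12 ± 0.41 (adjusted p = 0.94). Tumor CD45+ cells lay below MDSC by -1.16 ± 0.28 in Lgals3 (adjusted p = 0.035), as the only member called, against 6.42% of 10251 tested genes. That call was kept in 2 of 9 fits that each left out a library, those without library 2 of tumor CD45+ cells or library 3 of tumor CD45- cells, with adjusted p between 0.04 and 0.14. Tumor CD45- cells lay below MDSC by -6.68 ± 0.28 (adjusted p = 2.7e-08).

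Lgals3 levels are given here with the neutrophil and the monocyte and macrophage marker sums of the same libraries. Library 3 of anemia CD45+ cells, with the high Lgals3 level of 93.4, had a neutrophil sum of 2760.5, where the other libraries of that group had 843 and 474. Its level of Itgam, which encodes the CD11b integrin chain, was 48.0 against 12 and 10.4, and its erythroid sum was 3141 against 37911 and 24607. Library 3 of tumor CD45+ cells, with the low Lgals3 level of 89.5, had a neutrophil sum of 11159, where the others had 28055 and 29353. The neonatal CD45+ libraries had sums of 9415 to 11839.7, near that of this tumor library, and Lgals3 levels of 126 to 189.6. Other libraries went the other way. MDSC library 3 had the highest neutrophil sum of its group, 69249 against 44618 and 57356, and the lowest Lgals3 level, 275 against 308 and 355. Tumor CD45- libraries had sums of 32.1 to 371 and Lgals3 levels of 1.63 to 2.33. Anemia CD45- libraries had lower sums, 8.91 to 14.2, and higher Lgals3 levels, 4.32 to 7.59. None of the 12 neutrophil markers was listed at 0 in a whole group. The sum of 14 monocyte and macrophage markers was 1315 in library 3 of tumor CD45+ cells, against 358 and 419 in the others. In library 3 of anemia CD45+ cells it was 417, against 247 and 267. Without library 3 of anemia CD45+ cells, Lgals3 remained higher in tumor than in anemia CD45+ cells (2.49, adjusted p = 7.0e-05), and the interaction was 3.65 (adjusted p = 1.8e-04). Without library 3 of tumor CD45+ cells, the Lgals3 difference from MDSC was -0.85 and was not called (adjusted p = 0.076). The part of these markers in the Lgals3 differences was not tested.

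**Figure D2:**
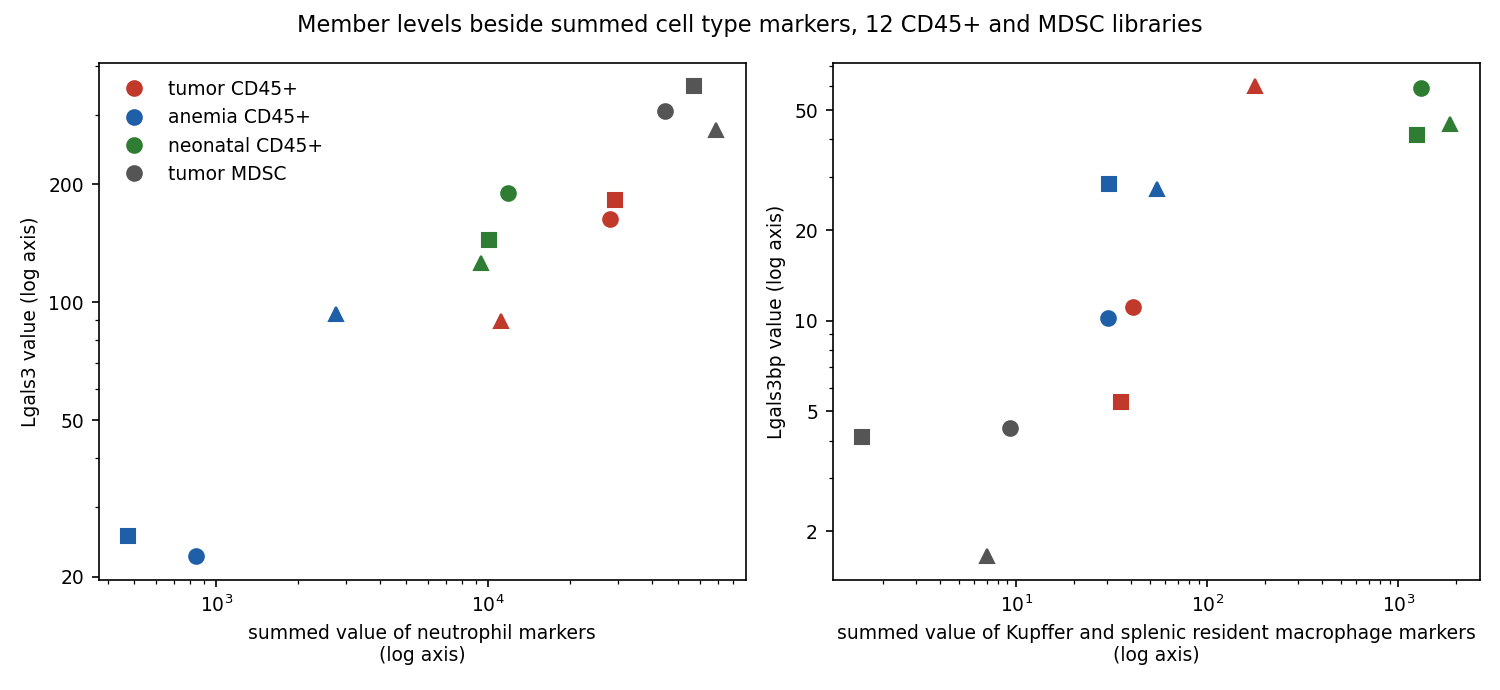
Left, Lgals3 value against the summed value of 12 neutrophil markers; right, Lgals3bp value against the summed value of 8 Kupffer and splenic resident macrophage markers, in the 12 CD45+ and MDSC libraries on log axes. Colours are groups and circles, squares and triangles are libraries 1, 2 and 3. The anemia CD45+ library with a Lgals3 value of 93.4 has the highest neutrophil sum of its group, and the tumor CD45+ library with a Lgals3bp value of 59.9 has the highest macrophage sum of its group. The MDSC library with the highest neutrophil sum has the lowest Lgals3 value of its group.

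Lgals4, Lgals8 and Lgals9 encode tandem-repeat galectins, in which a pair of different sugar-binding domains is joined by a linker. Lgals4, best known from the gut epithelium, was at most 7.08 in any library. It was 5.09, 5.53 and 7.08 in tumor CD45+ libraries, 3.26, 4.11 and 3.22 in anemia CD45+ libraries and 2.74, 3.99 and 4.49 in neonatal CD45+ libraries. In CD45- libraries it was 0.202, 0.852 and 0.976 in tumor-bearing mice, 0.163, 0.138 and 1.06 in anemia mice and 0.762, 0.300 and 1.25 in neonatal mice. MDSC had 4.78, 5.62 and 5.42. The lowest CD45+ or MDSC library thus lay above the highest CD45- library. By mean, tumor CD45+ cells (5.90 ± 1.04 SD, n = 3) came first and overlapped MDSC, neonatal CD45+ cells overlapped anemia CD45+ cells, and the CD45- groups overlapped each other, with anemia CD45- last (0.455 ± 0.527 SD, n = 3). These 3 tiers did not overlap. Lgals4 and Lgals6 are near-identical copies in some mouse strains. In a strain that carries both, the counting could split or share their reads and leave the Lgals4 values uncertain. Whether these C57BL/6 mice carry Lgals6 was not tested.

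Most CD45- levels of Lgals4 lie below the pseudocount of 1, so its folds are understated. Its CD45 difference was 2.06 ± 0.29 in tumor-bearing mice (adjusted p = 9.9e-06), 1.69 ± 0.29 in anemia mice (adjusted p = 8.2e-05) and 1.44 ± 0.29 in neonatal mice (adjusted p = 3.8e-04). Over 12 processing alternatives the tumor difference of Lgals4 ran from 0.84 with quantile normalization to 3.14 with a pseudocount of 0.1, and the anemia one from 0.69 (adjusted p = 0.0495) to 3.11, and all passed. Under quantile normalization the neonatal difference was 0.42 and did not pass (adjusted p = 0.23, in a range of 1.0e-04 to 0.23 over 12 processing alternatives). Tumor CD45+ libraries lay above those of anemia and of neonatal CD45+ cells in Lgals4, as they did for 13.2% and 7.99% of genes. The differences of 0.60 ± 0.29 (adjusted p = 0.22) and 0.55 ± 0.29 (adjusted p = 0.36) did not pass. Tumor CD45- cells lay below MDSC by -1.93 ± 0.26 (adjusted p = 8.4e-05).

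Lgals8 encodes galectin-8, which binds sugars on damaged vesicles and brings autophagy receptors to them. Its level was at least 5.95 in every library of both CD45 fractions. In CD45+ libraries it was 14.3, 14.8 and 36.6 in tumor-bearing mice, 25.8, 25.8 and 46.0 in anemia mice and 20.0, 16.7 and 30.2 in neonatal mice. In CD45- libraries it was 8.42, 9.52 and 15.7, then 6.58, 6.14 and 9.81, and 8.67, 5.95 and 9.12 in the same order of statuses. The libraries were apart in anemia and neonatal mice and overlapped in tumor-bearing mice. MDSC had 12.1, 11.9 and 20.9. Library 3 had the highest Lgals8 value in 7 of 7 groups, as it had for 2.81% of 11290 genes. Neighbouring groups overlapped all along the order of means, from anemia CD45+ (32.5 ± 11.7 SD, n = 3) to anemia CD45- (7.51 ± 2.00 SD, n = 3).

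The CD45 difference of Lgals8 was 1.95 ± 0.36 in anemia mice (adjusted p = 2.0e-04) and 1.36 ± 0.36 in neonatal mice (adjusted p = 0.0038). In tumor-bearing mice it was 0.82 ± 0.36 and did not pass (adjusted p = 0.060). Deviations of same-numbered libraries correlated only weakly between tumor CD45+ and CD45- cells, by 0.11, 0.12 and 0.27. With the replicate number as a block, the tumor difference passed (adjusted p = 0.0036), and the count of members called became 6. It also passed without library 1 (adjusted p = 0.035) or 2 (0.04) of tumor CD45+ cells and without library 3 of tumor CD45- cells (0.026). Scaling changed the picture: with median-ratio scaling the Lgals8 difference was -0.08 in tumor-bearing mice and 0.50 in neonatal mice (adjusted p = 0.18), and with quantile normalization the neonatal one was 0.65 (adjusted p = 0.13). Over the 12 processing alternatives the adjusted p ran from 0.0036 to 0.85 in tumor-bearing mice and from 6.0e-05 to 0.18 in neonatal mice.

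Lgals9 encodes galectin-9, a ligand of the checkpoint receptor TIM-3, the product of Havcr2. Its level was 54.7, 34.7 and 25.2 in tumor CD45+ libraries and 8.23, 9.10 and 35.8 in tumor CD45- libraries. In anemia mice it was 30.6, 22.1 and 23.5 in CD45+ cells and 15.8, 34.3 and 37.7 in CD45- cells. In neonatal mice it was 72.5, 42.9 and 31.8 in CD45+ cells and 22.5, 17.0 and 25.0 in CD45- cells. Only the neonatal libraries were apart. MDSC had 37.7, 64.8 and 45.6, above every tumor CD45- library. Neighbouring groups overlapped throughout the order of means, from MDSC (49.4 ± 14.0 SD, n = 3) to tumor CD45- (17.7 ± 15.7 SD, n = 3).

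Lgals9 was higher in CD45+ cells of tumor-bearing mice by 1.31 ± 0.47 (adjusted p = 0.023). The difference was -0.12 ± 0.47 in anemia mice (adjusted p = 0.84) and 1.09 ± 0.47 in neonatal mice (adjusted p = 0.0541), and neither passed. The neonatal difference of Lgals9 passed in 2 of 12 processing alternatives and in 4 of 18 fits without 1 library. The interaction of tumor and anemia mice was 1.43 ± 0.66 (adjusted p = 0.32) and that of tumor and neonatal mice 0.22 ± 0.66 (adjusted p = 1.0), and neither passed. The tumor call of Lgals9 was lost under median-ratio scaling (0.40, adjusted p = 0.42) and quantile normalization (0.84, adjusted p = 0.093), in a range of 0.017 to 0.42 over 12 processing alternatives. It was also lost without library 1 of tumor CD45+ cells (1.02) and without library 1 (0.95) or 2 (1.02) of tumor CD45- cells. Without library 3 of tumor CD45- cells, where Lgals9 was 35.8, the difference was 1.95 (adjusted p = 6.3e-04), the other end of the range over 18 such fits. Tumor CD45- cells lay below MDSC in Lgals9 by -1.70 ± 0.49 (adjusted p = 0.012). Lgals1, Lgals3, Lgals4 and Lgals9 were the 4 members called lower in that comparison, where 42.1% of tested genes were lower. The Lgals9 call was lost under median-ratio scaling (adjusted p = 0.063), under scaling without globin genes (0.0511) and without library 1 (adjusted p = 0.058) or 2 (adjusted p = 0.0528) of tumor CD45- cells. Its range was 0.0035 to 0.063 over 12 processing alternatives.

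Lgals3bp encodes the galectin-3 binding protein, a heavily glycosylated secreted protein of the scavenger receptor cysteine-rich family that also occurs on immune cell surfaces. Its level was 11.1, 5.39 and 59.9 in tumor CD45+ libraries and 3.06, 2.07 and 5.67 in tumor CD45- libraries. In anemia mice it was 10.2, 28.5 and 27.4 in CD45+ cells and 2.34, 11.3 and 7.87 in CD45- cells. In neonatal mice it was 59.3, 41.3 and 44.9 in CD45+ cells and 3.96, 13.5 and 3.36 in CD45- cells. Only the neonatal libraries were apart. Unlike Lgals3, Lgals3bp was lowest by mean in MDSC, at 4.40, 4.10 and 1.65, below every tumor CD45+ library. The order of means ran from neonatal CD45+ (48.5 ± 9.56 SD, n = 3) to MDSC (3.38 ± 1.51 SD, n = 3), and each neighbouring pair of groups overlapped.

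The CD45 difference of Lgals3bp was 1.94 ± 0.69 in tumor-bearing mice (adjusted p = 0.022) and 2.85 ± 0.69 in neonatal mice (adjusted p = 0.0019). It was 1.56 ± 0.69 in anemia mice and did not pass (adjusted p = 0.060). Tumor CD45+ cells differed from MDSC by 2.00 ± 0.70, which did not pass (adjusted p = 0.13). Libraries were apart in that direction for 24.4% of tested genes. A single library carried much of the tumor level: without library 3 of tumor CD45+ cells the tumor difference was 1.01 and was not called (adjusted p = 0.17, in a range of 0.004 to 0.17 over 18 such fits). The call was lost, too, without library 1 (adjusted p = 0.055) or 2 (0.078) of tumor CD45- cells. The anemia difference passed without that tumor CD45+ library (adjusted p = 0.02), without library 2 of tumor CD45+ cells (0.04), library 1 of anemia CD45+ cells (0.032) or library 2 of anemia CD45- cells (0.042). Without library 3 of tumor CD45+ cells, tumor CD45+ cells were also called lower than neonatal CD45+ cells in Lgals3bp (-2.47, adjusted p = 0.013, against -1.54 and 0.25 with that library).

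That library also stood apart in summed macrophage, hepatocyte and B cell markers. Its sum of 14 monocyte and macrophage markers was 1315, against 358 and 419 in the other tumor CD45+ libraries, and its sum of 8 Kupffer and splenic resident macrophage markers was 177, against 40.8 and 35.3. Its sum of 8 hepatocyte markers was 180.2, against 34.5 and 36.0, and its sum of 9 B cell markers was 592, against 139.5 and 179. The neonatal CD45+ libraries, where Lgals3bp was highest by mean, had Kupffer and resident macrophage sums of 1247 to 1871 and hepatocyte sums of 229.9 to 429. The hepatocyte sum overlapped that range in neonatal CD45- cells (121 to 694), where Lgals3bp was 3.36 to 13.5. The Kupffer and resident macrophage sum was 30.1 to 54.3 in anemia CD45+ cells, 90.8 to 113 in neonatal CD45- cells, 4.26 to 12.3 in tumor CD45- cells and 4.62 to 13.2 in anemia CD45- cells. In MDSC, where Lgals3bp was lowest by mean, it was 1.56 to 9.23. The Kupffer cell marker Clec4f was listed at 0 in each library of tumor CD45+ cells, anemia CD45- cells and MDSC. Of the 8 hepatocyte markers, Serpina1a was listed at 0 in each tumor CD45+ library, and 6 were in each anemia CD45+ library. In tumor-bearing mice 1 of the 8 was called higher in CD45+ than in CD45- cells. The part of these markers in the Lgals3bp differences was not tested.

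**Figure D3:**
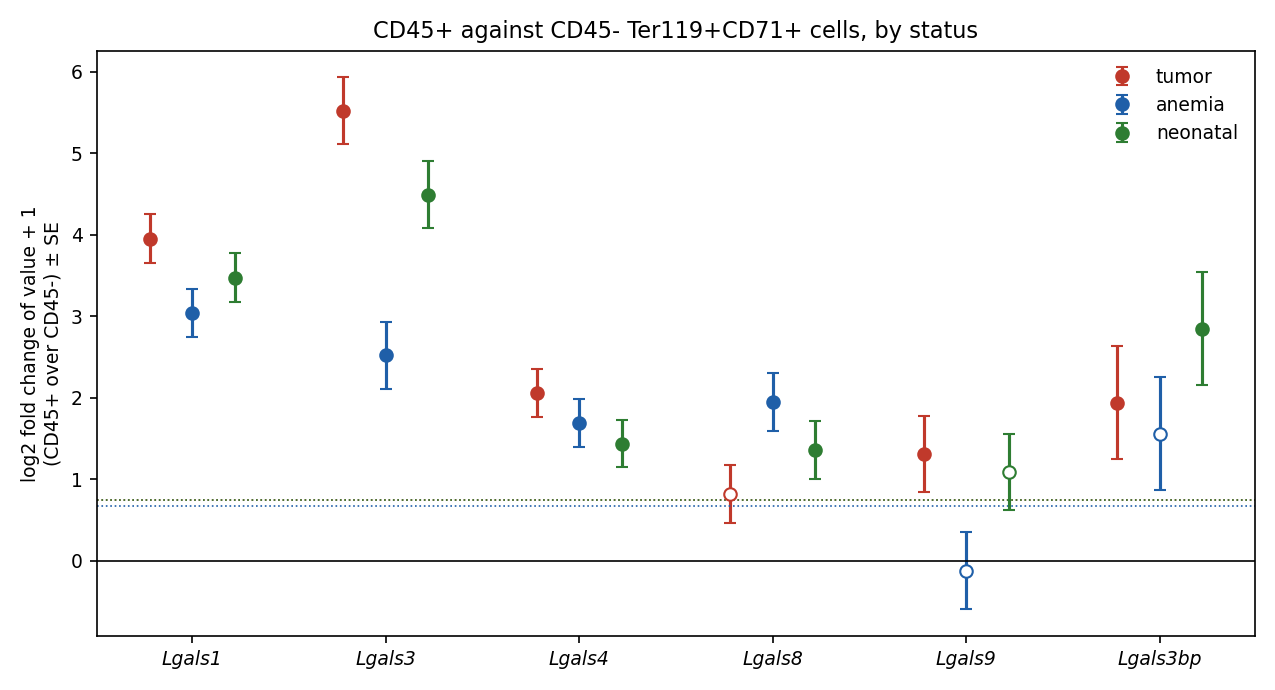
Log2 fold change of value + 1 of each member, CD45+ over CD45- cells, by status, with standard errors from the fit of 18 libraries. Filled points passed at an adjusted p below 0.05 and open points did not, and dotted lines are the medians of the tested genes (0.75, 0.68 and 0.75). Lgals3 shows the widest spread between statuses, from 2.52 in anemia to 5.52 in tumor-bearing mice.

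The partners of the galectins were followed in the same comparisons through 3 lists of textbook genes. Of 26 counter-receptors and binding partners, 25 were tested and Ptprk was not. In CD45+ against CD45- cells 20 were higher and 2 lower in tumor-bearing mice, 20 and 2 in anemia mice, and 20 and 1 in neonatal mice, with median log2 fold changes of 2.53, 2.27 and 2.00. Over all tested genes 50.2%, 47.4% and 49.6% were higher and 10.9%, 11.3% and 10.3% lower, with medians of 0.75, 0.68 and 0.75. Under quantile normalization 18, 15 and 16 were higher, with medians of 1.80, 1.21 and 1.41. The shares of all tested genes given here are without scaling. Quantile normalization lowered the share of all called genes that were higher, as given above. Without scaling, 18 were higher in all 3 statuses. Itgal, which encodes the LFA-1 integrin chain, was higher by 5.16 ± 0.26, 5.43 ± 0.26 and 4.23 ± 0.26 in tumor-bearing, anemia and neonatal mice. Thy1, a glycoprotein of T cells to which galectin-1 binds, was higher by 3.14 ± 0.43, 5.43 ± 0.43 and 2.00 ± 0.43. The list also holds Ptprc, which is among the genes counted as higher and is the antigen that divided the fractions, so its difference is no finding. Itgam, gated in MDSC but not in these fractions, was higher by 6.43 ± 0.42, 4.25 ± 0.42 and 5.79 ± 0.42. Tfrc, whose product CD71 was gated in both fractions, was the gene lower in all 3 statuses, by -3.21 ± 0.47, -2.68 ± 0.47 and -3.13 ± 0.47.

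A few partners are named here after their values were seen. Cd44, the hyaluronan receptor that galectins also bind, was higher by 3.21 ± 0.39, 3.09 ± 0.39 and 3.98 ± 0.39 in tumor-bearing, anemia and neonatal mice. Havcr2, the galectin-9 receptor, was at most 5.99 in any library and was called in anemia mice (1.75 ± 0.40, adjusted p = 0.0011). Its differences in tumor-bearing and neonatal mice were 0.09 ± 0.40 and 0.10 ± 0.40. The interactions of Havcr2 did not pass, at -1.66 ± 0.56 for tumor minus anemia (adjusted p = 0.15) and 1.66 ± 0.56 for anemia minus neonatal mice (adjusted p = 0.093). Havcr2 depended on scaling: with quantile normalization it was 0.58 in anemia mice (adjusted p = 0.23), -1.02 in tumor-bearing mice (0.035) and -1.0 in neonatal mice (0.04). Lag3, a checkpoint receptor that galectin-3 binds, was low as well, at most 3.83 in any library, and was higher in CD45+ cells by 1.11 ± 0.25, 1.60 ± 0.25 and 0.91 ± 0.25 in tumor-bearing, anemia and neonatal mice. With quantile normalization Lag3 did not pass in tumor-bearing (0.21, adjusted p = 0.54) or neonatal mice (0.55, adjusted p = 0.099). Sums of T and NK cell markers are given here beside Thy1, and not beside the other partners. In the anemia CD45+ libraries, where Thy1 was 63.6, 72.0 and 34.9, the sum of 12 T and NK cell markers was 307, 297 and 182. It was 50.5, 51.6 and 136 in tumor CD45+ libraries, where Thy1 was 3.59, 7.18 and 21.7. It was 24.5 to 68.9 in neonatal CD45+ libraries, and the part of these cells in the result was not tested.

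Of 22 enzymes that build or cap the sugars galectins read, 21 were tested, and Mgat3 was not analysed here. In CD45+ cells 9 were higher and 4 lower in tumor-bearing mice, 9 and 4 in anemia mice, and 7 and 2 in neonatal mice, with medians of 0.90, 0.35 and 0.50, beside 0.75, 0.68 and 0.75 over tested genes. The shares higher were below those of all tested genes (50.2%, 47.4% and 49.6%). The shares lower were above 10.9% and 11.3% in tumor-bearing and anemia mice and below 10.3% in neonatal mice. With median-ratio scaling 7, 7 and 6 were higher and 7, 6 and 6 lower, with medians of 0.03, -0.40 and -0.15. The shares of all tested genes given here are without scaling, and median-ratio scaling moved those as well. Man2a2 and Man2a1, the Golgi mannosidases that open the way to complex N-glycans, were both higher in CD45+ cells in each status. Man2a2 differed by 4.23 ± 0.22, 4.01 ± 0.22 and 3.50 ± 0.22, and Man2a1 by 3.95 ± 0.31, 2.58 ± 0.31 and 3.00 ± 0.31. Mgat5, which adds the N-glycan branch that galectin-3 binds best, was higher by 2.68 ± 0.32, 1.57 ± 0.32 and 2.81 ± 0.32, and with quantile normalization Mgat5 did not pass in anemia mice (0.43, adjusted p = 0.21). St6gal1, whose alpha-2,6-linked sialic acid blocks galectin-1 binding, was higher by 3.28 ± 0.40, 4.33 ± 0.40 and 2.28 ± 0.40. Genes that favour and genes that block galectin binding were thus both among those higher in CD45+ cells. Gcnt1 and B3gnt3, named after their values were seen, were the 2 enzymes lower in all 3 statuses. In each status both lost the call in some fits without 1 library.

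The damaged-vesicle list had more lower than higher genes. Of 14 genes, 13 were tested, and Calcoco2 was not analysed here. In CD45+ cells 2 were higher and 8 lower in tumor-bearing mice, 2 and 3 in anemia mice, and 2 and 6 in neonatal mice, with medians of -0.73, -0.05 and -0.59. All tested genes had medians of 0.75, 0.68 and 0.75, with 50.2%, 47.4% and 49.6% higher and 10.9%, 11.3% and 10.3% lower. With median-ratio scaling 10, 7 and 8 were lower, with medians of -1.68, -0.93 and -1.51. That scaling also lowered the share of all called genes that were higher, as given above. The counts with scaling therefore have no matching share here. The 2 higher ones were Tecpr1, a lysosomal repair and autophagy protein, with 3.39 ± 0.24, 4.24 ± 0.24 and 2.07 ± 0.24, and Trim16, a partner of galectin-3 at torn lysosomes, with 1.49 ± 0.20, 0.70 ± 0.20 and 1.18 ± 0.20. The autophagy receptor Optn was lower, by -1.57 ± 0.29, -1.98 ± 0.29 and -1.69 ± 0.29. Calcoco1 was lower by -2.11 ± 0.32 in tumor-bearing and -2.32 ± 0.32 in neonatal mice, and its difference of -0.32 ± 0.32 in anemia mice did not pass (adjusted p = 0.41). With median-ratio scaling that anemia difference of Calcoco1 was -1.15 (adjusted p = 0.029), and with quantile normalization Trim16 did not pass in anemia mice (0.44, adjusted p = 0.062). Autophagy genes are also used by erythroid cells to clear mitochondria. The erythroid marker sum was lower in every CD45+ than in every CD45- library of tumor-bearing and of neonatal mice, and in anemia mice it was 3141 to 37911 against 30441 to 134253. Its part in the result was not tested.

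**Figure D4:**
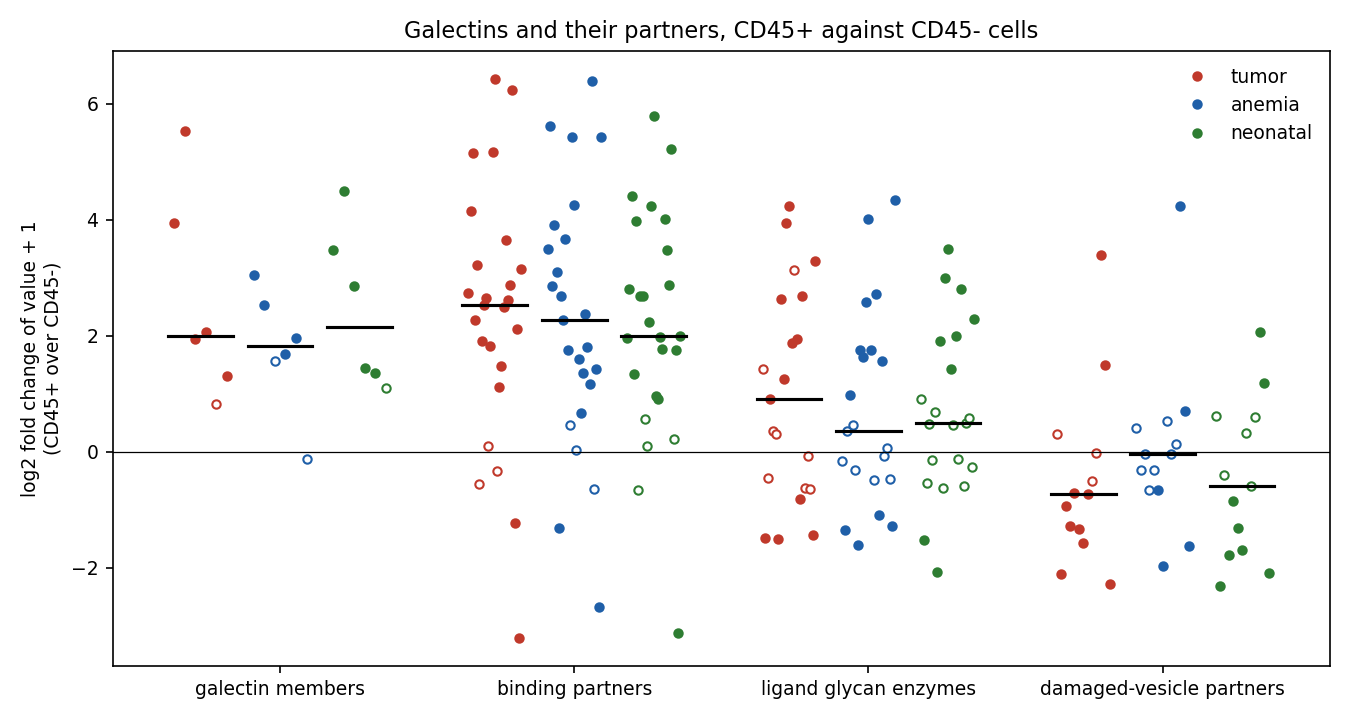
Log2 fold change of value + 1, CD45+ over CD45- cells, of the tested genes of 4 lists by status, with the list median as a black bar. Filled points passed at an adjusted p below 0.05 and open points did not. The binding partners lie mostly above 0, with medians of 2.53, 2.27 and 2.00, and the damaged-vesicle partners have medians of -0.73, -0.05 and -0.59.

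The genes whose pattern was most like each member's were ranked by Pearson correlation of log2(value + 1) among 6435 other genes over the 21 libraries. These libraries fall into a high and a low tier by CD45, so high correlations come easily, and the values are descriptions. For Lgals3 they were Spi1, which encodes the myeloid factor PU.1 (0.986), Aldh2 (0.985) and Itgam (0.985). For Lgals1 they were Itga6, Cst3 and Pld4 (0.959, 0.952 and 0.951), and for Lgals4 Ndst1, Zfp652 and Ankrd16 (0.964, 0.961 and 0.961). For Lgals8 they were Rfx5, Arl5b and Ifrd1 (0.954, 0.953 and 0.947). Lgals9 had the weakest best match, Gatm at 0.854, before Ppp2r5d and Bre. Lgals3bp was most like Cadm1 (0.906), Nr1h3, which encodes the macrophage receptor LXR-alpha (0.900), and Usp48 (0.889).

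Within the 12 CD45+ and MDSC libraries, which leave the CD45 tiers out, correlations between members were of both signs. The correlation of Lgals1 with Lgals3 was 0.80 over the 21 libraries and -0.30 over these 12. Lgals3 with Lgals4 went from 0.89 to 0.36 and Lgals8 with Lgals9 from 0.29 to -0.69, while Lgals1 with Lgals3bp was 0.73 and 0.82. The closest genes also changed. For Lgals3 they were Prdx5 (0.985), Itgam (0.980) and Arap3 (0.978), so Itgam was the gene in both sets. For Lgals1 they were Prkaca, Itm2c and Tgm2 (0.951, 0.944 and 0.936), and for Lgals3bp Ece1, Rgl1 and Nfrkb (0.956, 0.953 and 0.951). For Lgals8 they were Ddx5, Prpf38b and Arl5b (0.974, 0.974 and 0.969), for Lgals9 Hpcal1, Tmbim6 and Arhgap1 (0.916, 0.886 and 0.879), and for Lgals4 Calcrl, Zfp652 and Trappc11 (0.870, 0.866 and 0.820). Ddx5, Prpf38b and Arl5b, like Lgals8, were each highest in library 3 of every CD45+ and MDSC group, so these matches also follow the library number.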

How the data were processed

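RNA of sorted mouse spleen cells was sequenced in 21 libraries, 3 in each of 7 groups, from total RNA with a TruSeq kit per the labels' protocols. The submitters' processing notes name Bowtie 0.12.2 and the mouse build mm8. Each library has a deposited column of log2 expression. The counting tool, the annotation, the strand setting and the scale behind the log are not given in the sources used here. Blank cells (7.90%) were taken as 0. A repeated symbol kept its entry with the highest mean (8 dropped), and 22 symbols turned into dates were not named.

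After the log was undone, log2(value + 1) was tested without scaling between libraries, so that fold changes of low genes are understated. Genes that reached 1 in 3 or more libraries entered limma 3.58.1 (R 4.3.3, statmod 1.5.0, trend and robust options): 11192 in a joint fit of all 18 libraries of Ter119+CD71+ cells and 10251 in a fit of the 9 tumor libraries, used for comparisons with MDSC. Tests were two-sided, with Benjamini-Hochberg adjustment over the tested genes at 0.05, and were tested on simulated data. Comparisons that share a group share its libraries. Other pseudocounts, filters, scalings, fits and library sets were tried as alternatives.

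Replicate numbers are shared across groups in the labels. Deviations from the group means of same-numbered libraries correlated by 0.11, 0.12 and 0.27 between tumor CD45+ and CD45- cells. The values were 0.19, 0.11 and 0.23 in anemia mice and 0.21, 0.23 and 0.36 in neonatal mice. The main fits held no term for the replicate number, so the CD45 results above are unpaired. A replicate block was fitted as an alternative. With it Lgals8 passed in tumor-bearing mice, and the anemia minus neonatal term of Lgals3 did not. Deviations correlated as well between tumor and neonatal CD45+ cells (0.11, 0.19 and 0.38) and between tumor CD45+ cells and MDSC (0.17, 0.19 and 0.32). Of tumor and anemia CD45+ cells 1 pair was at 0.05, and of anemia and neonatal CD45+ cells 1 was at 0.08.

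The members, the partner and marker lists and the comparisons were chosen with earlier results of these data known. Named genes were the members, up to 4 genes per partner list with the smallest adjusted p in the CD45 comparisons, the 3 genes most like each member with a mean of at least 10 in their highest group, and gated antigens. Genes outside that rule are marked. Libraries of a group correlated by 0.915 to 0.977 and none were identical.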

Additional observations from a re-analysis of the deposited data

Results flagged for a closer look

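A pair of results stood out because a test of the difference itself found that the CD45 difference of Lgals3 was not the same in 2 statuses. The Lgals3 difference between CD45+ and CD45- cells was larger in tumor-bearing than in anemia mice by 3.01 (limma, adjusted p = 0.012). It was smaller in anemia than in neonatal mice, by -1.98 (adjusted p = 0.0499). The first missed the threshold in a fit of only the groups compared (adjusted p = 0.0542). The second lay at the threshold: it was kept in 2 of 12 processing alternatives and 2 of 18 fits without 1 library, and had an adjusted p of 0.059 with the replicate number as a block. Both share the anemia libraries. Without library 3 of anemia CD45+ cells, in which Lgals3 was 93.4 and the neutrophil marker sum 2760.5, they were 3.65 (adjusted p = 1.8e-04) and -2.62 (adjusted p = 0.0014).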

How the results depend on the processing

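Depth is unknown, so what counting error limits could not be given. In the CD45 comparisons Lgals1 and Lgals3 kept their calls in 36 of 36 processing alternatives and in 54 of 54 fits without 1 library, and Lgals4 in 35 and 54. Members called in tumor CD45+ against CD45- cells went from 5 to 3 with median-ratio scaling, quantile normalization, scaling without globin genes and a fit of only the groups compared, and to 3 to 6 without 1 library. Lgals3bp then missed in those 4 settings with adjusted p of 0.15, 0.24, 0.0505 and 0.0504, and Lgals9 with 0.42, 0.093, 0.07 and 0.065. The anemia count of 4 ran to 5, and the neonatal count of 5 went to 3 with quantile normalization, to 6 with the fit of all 21 libraries or of only the groups compared, and to 5 to 6 without 1 library. In tumor against anemia CD45+ cells 1 became 0 in the fit of only these groups and 0 to 2 without 1 library. Tumor against neonatal CD45+ cells had 1 to 2, anemia against neonatal CD45+ cells 2, tumor against neonatal CD45- cells 1 to 2 and anemia against neonatal CD45- cells 0 to 1. In tumor against anemia CD45- cells 0 became 1, Lgals1, with pseudocounts of 0.1 and 0.5, scaling without globin genes, genes with a blank left out and a fit of all 21 libraries, and without 1 library (0 to 1). In tumor CD45+ cells against MDSC 1 became 0 with the fit of all 21 libraries or of only these groups, and 0 to 2 without 1 library, and in tumor CD45- cells against MDSC the 4 ran from 3 to 4. The tumor minus anemia interaction went from 1 to 0 in the fit of only those groups and to 1 to 2 without 1 library. The anemia minus neonatal one went from 1 to 0 in 10 of 12 alternatives, the replicate block included, and to 0 to 1 without 1 library. The replicate block changed no other call of a member than these, namely Lgals3 there and Lgals8 in tumor-bearing mice. Leaving out library 3 of every group was chosen after seeing the data. Members called were then 5, 4 and 6 in the CD45 comparisons, 3 in tumor against anemia, 2 in tumor against neonatal and 2 in anemia against neonatal CD45+ cells, 2, 2 and 1 among CD45- cells in that order, 0 and 4 against MDSC, and 3, 1 and 1 by interaction. The share of all tested genes called in that setting is not given here, so these counts are not read as particular to the members.

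Sign changes occurred 46 times, never where either fit passed. With median-ratio scaling Lgals8 was -0.08 in the tumor CD45 comparison and 0.28 in tumor CD45- cells against MDSC, and Lgals4 was 0.01 in anemia against neonatal CD45+ cells and -0.14 in tumor CD45+ cells against MDSC. With quantile normalization Lgals4 was -0.15 there and 0.17 in tumor against neonatal CD45- cells, Lgals8 0.18 in tumor CD45- cells against MDSC, and Lgals1 -0.09 in the tumor minus neonatal interaction. With scaling without globin genes Lgals4 was 0.09 in anemia against neonatal CD45+ cells and Lgals8 0.11 in tumor CD45- cells against MDSC. Without library 3 of every group Lgals9 was 0.15 in the anemia CD45 comparison, Lgals3 0.06 in tumor against neonatal CD45+ cells and -0.27 in anemia against neonatal CD45- cells, and Lgals4 0.11 in anemia against neonatal CD45+ cells. Lgals3bp was then -0.40 in anemia against neonatal CD45- cells, -0.57 in tumor CD45- cells against MDSC and -0.19 in the tumor minus anemia interaction, and Lgals1 -0.05 in tumor CD45+ cells against MDSC. Without 1 library at a time, sign changes gave ranges for Lgals9 from -0.50 to 0.10 in the anemia CD45 comparison, Lgals3bp from -1.26 to 0.37 in tumor against anemia CD45+ cells, Lgals3 from -0.32 to 0.19 in tumor against neonatal CD45+ cells and Lgals8 from -0.54 to 0.11 in tumor against neonatal CD45+ cells. They were Lgals4 from -0.21 to 0.06 in anemia against neonatal CD45+ cells, Lgals4 from -0.28 to 0.15 in tumor against neonatal CD45- cells, Lgals3 from -0.16 to 0.18 in anemia against neonatal CD45- cells and Lgals8 from -0.26 to 0.04 in anemia against neonatal CD45- cells. They were, last, Lgals3bp from -0.32 to 0.62 in anemia against neonatal CD45- cells, Lgals3bp from -0.26 to 0.32 in tumor CD45- cells against MDSC, Lgals3bp from -0.55 to 1.08 in the tumor minus anemia interaction and Lgals9 from -0.14 to 0.86 in the tumor minus neonatal interaction.

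Over all tested genes the number called, with its range over processing alternatives and fits without 1 library, was 1200 (75 to 2225) in tumor against anemia CD45+ cells, 740 (140 to 1238) in tumor against neonatal CD45+ cells, 2277 (1397 to 3085) in anemia against neonatal CD45+ cells, 17 (0 to 90) in tumor against anemia CD45- cells and 284 (149 to 707) in tumor against neonatal CD45- cells. It was 485 (211 to 866) in anemia against neonatal CD45- cells, 658 (238 to 1109) in tumor CD45+ cells against MDSC, 245 (64 to 1184) in the tumor minus anemia interaction, 121 (38 to 395) in the tumor minus neonatal interaction and 775 (349 to 1134) in the anemia minus neonatal interaction. For CD45+ against CD45- cells it was 6837 (5195 to 7563) in tumor-bearing, 6575 (5078 to 7356) in anemia and 6708 (5129 to 7566) in neonatal mice. In tumor CD45- cells against MDSC it was 5780 (4446 to 6284). The numbers over all genes thus moved between settings along with those of the members. These ranges leave out the fit without library 3 of every group. The causes were not tested.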
